A study of Mus musculus with 9 samples.

Results

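The genes described here carry glucose into the cell, break it down to pyruvate and lactate, or pass it through the pentose phosphate pathway. They were chosen by name, with earlier results of these data known, so their contrasts with all genes are descriptions. All 40 names were found among the 47480 gene names of the count table, and 40 of 40 were among the 16426 genes kept by the filter on low counts. They comprised 2 glucose transporters, 10 genes of upper glycolysis from the hexokinases to triose phosphate isomerase, 4 PFKFB genes, 8 genes of lower glycolysis from Gapdh to Pkm, 4 genes of lactate formation and transport, 4 pyruvate dehydrogenase kinases, 2 phosphoglucomutases and 6 genes of the pentose phosphate pathway. Glycolysis traps glucose by phosphorylation, splits the sugar and ends in pyruvate, with hexokinase, phosphofructokinase and pyruvate kinase at its committed steps. Pyruvate is then reduced to lactate and exported, or enters mitochondria through the pyruvate dehydrogenase complex, which the pyruvate dehydrogenase kinases switch off. The pentose phosphate pathway branches off upstream of phosphofructokinase and yields NADPH and the sugars of nucleotides. Mouse hematopoietic stem cells are known for a glycolytic metabolism in which Pdk2 and Pdk4 take part.

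RNA was sequenced from 2 populations of hematopoietic cells of C57BL/6 mice, in a series on the RNA that is being translated. The MP cells are labelled progenitor cells, an abbreviation that the sources used here do not spell out, and the LSK cells, which by the usual meaning of the name lack lineage markers and carry Sca-1 and Kit, are labelled stem cells. There were 3 libraries of MP polysomal RNA, 2 of MP total RNA, 2 of LSK polysomal RNA and 2 of LSK total RNA. Cells of every group had been kept in cycloheximide, which stalls ribosomes on their messages, at 100 ug/ml for 10 min before lysis. Part of each lysate was put aside as total RNA, the rest was spun through a sucrose gradient of 10 to 60%, and of 10 fractions the one numbered 7 gave the polysomal RNA. Polysomal RNA therefore stands for messages that sediment at 1 position in the gradient, and lighter and heavier fractions are not analysed here. RNA was extracted with Trizol and amplified by the SMARTer method. The sources used here give no age, sex, genotype beyond the strain or number of animals. Since no label ties a library to an animal or a sort of its own, the spread behind each p-value is that between libraries and may be technical.

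Total counts per library ranged from 27342343 to 34807735, so that a level of 1 CPM (counts scaled to the effective library size) stood for 24.1 to 40.1 counts. The Sca-1 gene Ly6a, part of the definition of LSK cells, had 0.159 to 1.26 CPM in the 5 MP libraries and 50.2 to 110 CPM in the 4 LSK libraries. Markers of other cells also differed. The summed level of 10 erythroid markers was 6010 to 10500 CPM in MP and 1800 to 3560 CPM in LSK libraries. Most of this sum was Car1 and Car2. The log2 change was positive for 10 of the 10 in total RNA and for 8 in polysomal RNA, where 2 were negative. Levels of Car2, Klf1, Hba-a1, Hbb-bt and Slc4a1 overlapped between the populations. The summed level of 8 granulocyte and monocyte progenitor markers was 31000 to 55700 CPM in MP and 4820 to 12100 CPM in LSK libraries. For 10 markers of maturing neutrophils the sum was 14300 CPM in MP total 1 and 17700 CPM in MP polysomal 1, against 521 to 1010 CPM in the other MP libraries and 444 to 2420 CPM in LSK libraries. For 8 B cell and plasma cell markers it was 155 to 356 CPM in MP libraries, against 4800 CPM in LSK total 2, 3370 CPM in LSK polysomal 2 and 622 and 899 CPM in LSK total 1 and LSK polysomal 1. No marker of the erythroid, neutrophil and granulocyte and monocyte progenitor lists was at 0 in any library, while the B cell marker Ms4a1 was at 0 in LSK polysomal 2 and the plasma cell marker Jchain in MP total 1. The part that these other cells have in the differences given below was not tested, and in bulk RNA fewer cells of a type and less RNA per cell cannot be told apart.

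Libraries of a group differed widely in the glycolysis genes. The 40 genes together took 1.81%, 1.69% and 1.4% of all counts in MP polysomal RNA and 1.76% and 1.24% in MP total RNA, against 1.61% and 2.53% in polysomal LSK RNA and 1.15% and 0.803% in total LSK RNA. LSK total 2 was the lowest of the 9 libraries for 24 of the 40 genes, while 22.9% of the 9073 genes that averaged 10 CPM or more were lowest there. LSK polysomal 2 was the highest for 17 of the 40 genes, against 24.9% of those 9073 genes. On a log2(CPM + 1) scale the median deviation of the 40 genes from their means was −1.02 in LSK total 2 and 0.79 in LSK polysomal 2, and between −0.44 and 0.36 in the other libraries. The median over all genes lay between −0.10 and 0.09 in every library. The phosphofructokinase Pfkl, for example, had 37.3 CPM in LSK total 2 but 347 CPM in LSK total 1, and the hexokinase Hk1 had 55.2 CPM in LSK total 2 but 473 CPM in LSK total 1.

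**Figure D1:**
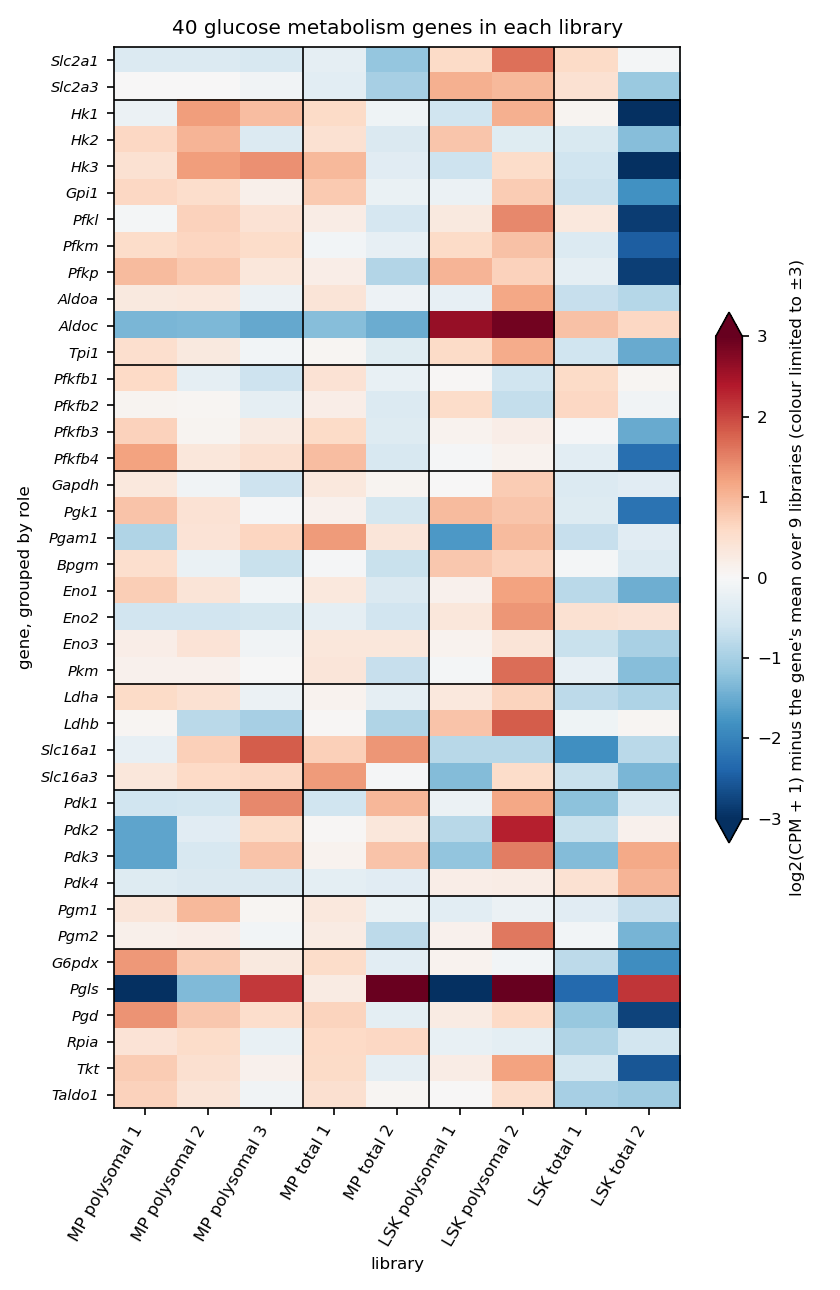
Each row is 1 of the 40 genes, grouped by role, and each column 1 of the 9 libraries. Colour shows log2(CPM + 1) minus the gene's mean over the libraries, limited to 3 in either direction. The LSK total 2 column is the darkest blue, with a median of −1.02, Aldoc is high in the 2 LSK polysomal columns, and Pgls swings between libraries of 1 group.

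Levels of different genes were compared per kilobase of annotated exon. Ldha, the muscle-type subunit of lactate dehydrogenase, was the highest of the 40 genes in each of the 9 libraries, with 1100, 1010 and 654 CPM per kb in MP polysomal RNA, 797 and 607 in MP total RNA, 917 and 1180 in polysomal LSK RNA and 430 and 388 in total LSK RNA. Aldoa, Tpi1, Gapdh, Pkm and Taldo1 had at least 121 CPM per kb in every library. Eno2 and Pdk4 had at most 0.583 CPM per kb in any library, and Aldoc, Pfkfb1 and Pfkfb2 at most 1.77 CPM per kb in any MP library. The gene spans of 22 of the 40 genes overlap another annotated gene, and Gapdh, Pgk1, Ldha, Aldoa, Tpi1, Pgam1 and Eno1 have processed copies elsewhere in the mouse genome. Whether the counting used strand is not stated in the labels or notes, and reads of such partners and copies may have been split or merged.

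The first question was how MP cells differed from LSK cells. In polysomal RNA, 3 of the 40 genes fell below LSK in MP cells by edgeR's quasi-likelihood test with Benjamini-Hochberg adjustment at 0.05 over all genes, namely Aldoc, Eno2 and Pdk4. This compares with 2.83% of all tested genes called lower. None of the 40 was called higher, against 0.524% of all tested genes, and at an unadjusted p under 0.05 1 was higher, Slc16a1 (6.09% of all tested genes), and 5 were lower (11.7%). All MP polysomal libraries lay above both LSK polysomal libraries for Pfkfb4, Slc16a1, Pgm1 and G6pdx, 4 of the 40 (15% of all tested genes). They lay below them for 8 (17.4%), namely Slc2a1, Slc2a3, Aldoc, Tpi1, Bpgm, Eno2, Ldhb and Pdk4. With both fractions averaged, the same 3 genes fell and the lactate transporter gene Slc16a1 rose in MP cells, against 7.37% of all tested genes lower and 2.72% higher, so the share of the 40 genes that passed was close to that of all genes. At an unadjusted p under 0.05, 7 of the 40 were higher and 5 lower (8.33% and 15.7% of all tested genes). The remaining 36 genes did not pass in either of these comparisons. The average over both fractions treats all libraries as separate, although total and polysomal RNA may come from the same lysates. It is therefore read beside its parts, and Slc16a1 was called by edgeR in the average but in neither part (adjusted p = 0.172 in polysomal and 0.138 in total RNA). The median log2 change of the 40 genes was −0.20 in polysomal RNA, where all tested genes had −0.03, and 0.31 for the mean of both fractions, where all tested genes had −0.01. With single libraries left out the median was −0.42 to 0.19 in polysomal RNA, above 0 only without LSK polysomal 2, and 0.12 to 0.60 over both fractions, lowest without MP total 1 and highest without LSK total 1. Over all genes, edgeR's 551 polysomal calls were 0 without MP polysomal 1 or MP polysomal 2, 25 without MP polysomal 3 and 203 without LSK polysomal 2, and its 1657 calls over both fractions were 652 without MP total 1, 726 without MP total 2, 997 without MP polysomal 2 and 1014 without LSK total 2.

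In total RNA, edgeR's test called none of the 40 genes between MP and LSK, where it called 0.274% of all tested genes higher and 0.816% lower. At an unadjusted p under 0.05, 8 of the 40 were higher and 3 lower in MP (4.52% and 12.5% of all tested genes), and DESeq2 called 3 of the 40, Aldoc and Pdk4 lower and Slc16a1 higher, and 1471 genes in all. Over all genes, edgeR's 179 calls were 0 without any 1 MP library or either LSK total library, 400 without LSK polysomal 1 and 446 without LSK polysomal 2. The log2 change was positive for 31 of the 40 and for 49.8% of all tested genes, with a median of 0.86 against −0.01. Leaving out LSK total 2 gave a median of 0.58, and leaving out other single libraries gave 0.57 to 1.26. Both MP libraries lay above both LSK libraries for 19 of the 40 genes (22.8% of all tested genes) and below them for 4 (28.5%), which were Slc2a1, Aldoc, Eno2 and Pdk4.

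**Figure D2:**
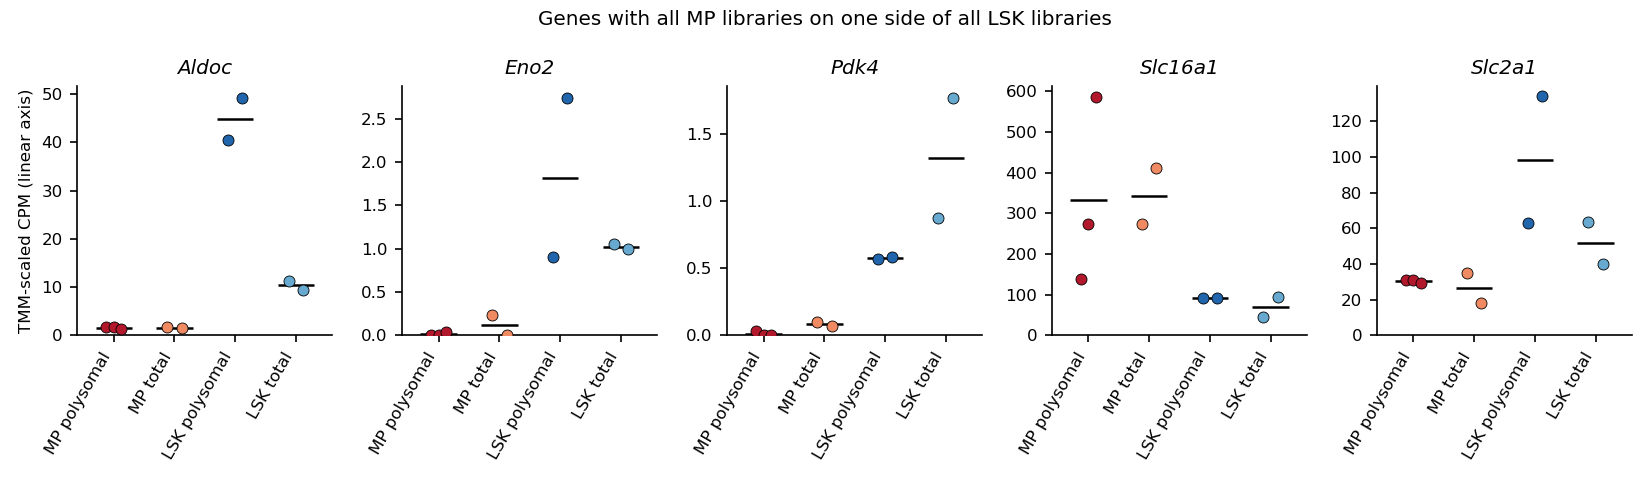
Points are single libraries in CPM on linear axes, and horizontal lines are group means. In all 5 genes every MP library lies on 1 side of every LSK library: below for Aldoc, Eno2, Pdk4 and Slc2a1, and above for Slc16a1.

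Over all 5 MP and 4 LSK libraries, Slc16a1 was the only 1 of the 40 genes that lay above LSK in every MP library (4.34% of all tested genes), and Slc2a1, Aldoc, Eno2 and Pdk4 lay below (8.51%). Aldoc encodes aldolase C, the brain-type isozyme that cleaves fructose bisphosphate, and lies on chromosome 11 at 78322968 to 78327781 on the plus strand (GRCm38, GENCODE M21). It had 1.61, 1.62 and 1.31 CPM in MP polysomal RNA and 1.77 and 1.4 CPM in MP total RNA, against 40.4 and 49.3 CPM in LSK polysomal RNA and 11.3 and 9.4 CPM in LSK total RNA. The MP libraries sat within a narrow band and no library of one population came near the other. The log2 change was −4.89 in polysomal RNA (SE 0.512, adjusted p = 0.00696), −2.71 in total RNA (SE 0.552, adjusted p = 0.053) and −3.80 over both fractions (SE 0.386, adjusted p = 0.00145). The mean over both fractions passed under all 18 alternatives, with adjusted p of at most 0.0333. The polysomal call was lost without MP polysomal 1 (adjusted p = 0.0504), MP polysomal 2 (0.0716) or the 2 MP libraries numbered 1 (0.0804), with log2 changes of −4.94, −4.94 and −4.92.

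Eno2, the neuron-type enolase of lower glycolysis, lies on chromosome 6 at 124760053 to 124769673 on the minus strand. It had 0, 0 and 0.0319 CPM in MP polysomal RNA and 0.233 and 0 CPM in MP total RNA, against 0.897 and 2.74 CPM in LSK polysomal RNA and 1.05 and 0.997 CPM in LSK total RNA. It was thus at the edge of detection in MP cells, where a count of 0 allows up to 0.102 CPM, and present at about 1 CPM or more in each LSK library. MP polysomal RNA held 1 count in all and LSK polysomal RNA 93, a depth-scaled ratio of 0.00641 (exact 95% interval 0.000161 to 0.0366, counting error only). In total RNA the counts were 7 in MP and 76 in LSK, a ratio of 0.113 (0.0438 to 0.244). The fitted log2 change, which at such counts depends on the prior count and is no bound, was −6.93 in polysomal RNA (SE 1.43, adjusted p = 0.0338) and −5.01 over both fractions (SE 1, adjusted p = 0.0139). It was −3.10 in total RNA (SE 1.31, adjusted p = 0.267). The polysomal call held under 9 of 19 alternatives. With single libraries left out, it was lost without MP polysomal 1 (adjusted p = 0.125), MP polysomal 2 (0.149), MP polysomal 3 (0.13), LSK total 1 (0.0505), LSK total 2 (0.0505) or LSK polysomal 2 (0.129). The call over both fractions was lost in 1 of 18, without both LSK libraries numbered 2 (adjusted p = 0.0528).

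Pdk4, a kinase that inactivates pyruvate dehydrogenase and is known to be induced by fasting, lies on chromosome 6 at 5483351 to 5496309 on the minus strand. It had 0.0342, 0 and 0 CPM in MP polysomal RNA and 0.0999 and 0.0649 CPM in MP total RNA, against 0.565 and 0.581 CPM in LSK polysomal RNA and 0.875 and 1.77 CPM in LSK total RNA. All LSK libraries were above all MP libraries, at levels of at most 1.77 CPM. The counts were 1 in MP polysomal RNA against 31 in LSK polysomal RNA, a ratio of 0.0192 (0.000472 to 0.115), and 5 in MP total RNA against 101 in LSK total RNA, a ratio of 0.0605 (0.0192 to 0.146). The fitted log2 change was −5.26 in polysomal RNA (SE 1.09, adjusted p = 0.0343), −3.94 in total RNA (SE 1.05, adjusted p = 0.0969) and −4.60 over both fractions (SE 0.766, adjusted p = 0.00645). In polysomal RNA the call was lost when any 1 of the 9 libraries was left out, with adjusted p of 0.0532 without MP total 2, 0.0535 without MP total 1, 0.054 without LSK total 1, 0.0569 without LSK polysomal 1, 0.0657 without LSK total 2, 0.0902 without MP polysomal 1, 0.0967 without LSK polysomal 2, 0.13 without MP polysomal 3 and 0.15 without MP polysomal 2. Over both fractions it was lost without both MP libraries numbered 1 (adjusted p = 0.0585), and it held when any single library was left out, with adjusted p of at most 0.0452.

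Slc16a1 encodes the monocarboxylate transporter MCT1, which moves lactate and pyruvate across the plasma membrane, and lies on chromosome 3 at 104638668 to 104658462 on the plus strand. It had 138, 273 and 586 CPM in MP polysomal RNA and 273 and 412 CPM in MP total RNA, against 91.9 and 91.8 CPM in LSK polysomal RNA and 45.2 and 92.9 CPM in LSK total RNA. Every MP library was higher than every LSK library, and the MP polysomal libraries were spread widely, from 138 to 586 CPM. Over both fractions the log2 change was 2.08 (SE 0.485, adjusted p = 0.0256), and it was 1.85 in polysomal RNA (SE 0.662, adjusted p = 0.172) and 2.31 in total RNA (SE 0.709, adjusted p = 0.138). The call over both fractions held under 10 of 18 alternatives. It was lost without MP total 1 (adjusted p = 0.0598), MP total 2 (0.0882), MP polysomal 2 (0.0526), LSK total 1 (0.0787), LSK polysomal 1 (0.0744) or LSK polysomal 2 (0.0629), with log2 changes of 1.88 to 2.23. The erythroid marker sum given above, mostly Car1 and Car2, was higher in MP than in LSK libraries too. Its part in the level of Slc16a1 was not tested.

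The promoters of the 4 called genes are shown because these genes passed the test between the populations. Each run is the 250 bases upstream of the RefSeq gene start on GRCm38.p6, read on the gene's own strand, and capitals mark the letters ACGTG or GCGTG, the core of the hypoxia response element, on either strand. The regions are chr11:78322823-78323072 (plus) for Aldoc, chr6:124769674-124769923 (minus) for Eno2, chr6:5496279-5496528 (minus) for Pdk4 and chr3:104638414-104638663 (plus) for Slc16a1.
Aldoc: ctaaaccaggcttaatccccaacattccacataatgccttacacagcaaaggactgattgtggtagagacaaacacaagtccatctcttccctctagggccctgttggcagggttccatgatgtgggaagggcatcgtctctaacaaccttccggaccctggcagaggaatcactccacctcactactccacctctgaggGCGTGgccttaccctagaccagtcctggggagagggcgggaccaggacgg
Eno2: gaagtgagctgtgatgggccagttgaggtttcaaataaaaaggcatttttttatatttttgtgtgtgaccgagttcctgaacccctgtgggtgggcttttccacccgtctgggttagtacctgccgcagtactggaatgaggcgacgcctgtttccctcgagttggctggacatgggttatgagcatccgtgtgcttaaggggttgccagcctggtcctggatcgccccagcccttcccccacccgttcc
Pdk4: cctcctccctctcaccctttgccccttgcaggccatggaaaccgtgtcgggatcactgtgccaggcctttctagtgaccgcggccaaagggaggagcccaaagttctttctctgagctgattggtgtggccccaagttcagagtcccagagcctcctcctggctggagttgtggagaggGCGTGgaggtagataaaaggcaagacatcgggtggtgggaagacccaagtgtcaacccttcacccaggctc
Slc16a1: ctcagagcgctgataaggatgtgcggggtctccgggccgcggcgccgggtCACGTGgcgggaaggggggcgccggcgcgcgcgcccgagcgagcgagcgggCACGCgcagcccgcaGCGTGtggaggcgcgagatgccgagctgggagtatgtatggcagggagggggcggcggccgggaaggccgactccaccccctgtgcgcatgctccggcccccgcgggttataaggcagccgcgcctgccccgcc
The core lies at −50 from the RefSeq gene start in Aldoc and at −71 in Pdk4. The GENCODE spans given above for these 2 genes begin farther upstream, so the ends of their runs lie inside those spans. The Aldoc core lies inside the GENCODE span and the Pdk4 core outside it. It occurred 4 times in Slc16a1, with 2 of the 4 matches on opposite strands inside 1 CACGTG, which is also the E-box read by factors such as Myc. These letters do not occur in the 250 bases shown for Eno2. Of the 40 genes, 39 were found in the RefSeq promoter table, and the core was present in 31 of them (79.5%) and in 10442 of all 27025 promoters of that length (38.6%). Slc2a3 was the gene not matched. Where a symbol had several starts, the most upstream was used. The promoters of all genes were not matched to the 40 genes for expression or base composition, so the 2 shares are no test of enrichment. A match is a description of the letters only.

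Of the 2 glucose transporter genes, neither passed in any comparison. Slc2a1, which encodes the widespread transporter GLUT1, had 31.2, 31 and 29.5 CPM in MP polysomal RNA and 34.8 and 18.1 CPM in MP total RNA, against 62.9 and 134 CPM in LSK polysomal RNA and 63.3 and 40 CPM in LSK total RNA. Each LSK library was above each MP library. Its log2 change was −1.69 in polysomal RNA (SE 0.528, adjusted p = 0.123), −0.96 in total RNA (SE 0.591, adjusted p = 0.46) and −1.32 over both fractions (SE 0.398, adjusted p = 0.0674). DESeq2 called it lower in MP in polysomal RNA. Over both fractions it was called lower by DESeq2, with library totals alone, with the GC trend removed, by limma on the authors' normalized values and without LSK polysomal 1. Slc2a3, the high-affinity transporter GLUT3, had 111, 110 and 102 CPM in MP polysomal RNA and 88.3 and 54.5 CPM in MP total RNA, against 230 and 215 CPM in LSK polysomal RNA and 152 and 50.3 CPM in LSK total RNA. The polysomal groups did not overlap and the total RNA groups did, with a log2 change of −1.05 in polysomal RNA (SE 0.515, adjusted p = 0.334).

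In upper glycolysis, Aldoc was the 1 gene of 10 that passed. The hexokinases phosphorylate glucose as it enters the cell. Hk3, the myeloid hexokinase, had 485, 848 and 919 CPM in MP polysomal RNA and 701 and 281 CPM in MP total RNA, against 229 and 523 CPM in LSK polysomal RNA and 235 and 41.1 CPM in LSK total RNA. The total RNA groups did not overlap, the polysomal groups did, and the log2 change over both fractions was 1.42 (SE 0.566, adjusted p = 0.158). With no filter on low counts Hk3 was called higher in MP over both fractions. Hk1 had a log2 difference of 0.67 over both fractions (SE 0.63, adjusted p = 0.605), and Hk2, the insulin- and hypoxia-responsive form, one of 0.55 (SE 0.473, adjusted p = 0.561). The phosphofructokinases, which commit the sugar to glycolysis, had log2 differences over both fractions of −0.09 for Pfkl (SE 0.581, adjusted p = 0.959), 0.40 for Pfkm (SE 0.429, adjusted p = 0.657) and 0.33 for Pfkp (SE 0.512, adjusted p = 0.782). These averages joined opposite signs. In total RNA the values were 0.42 for Pfkl, 0.96 for Pfkm and 0.81 for Pfkp, and in polysomal RNA −0.60, −0.15 and −0.16, none of them called. The total RNA groups of Pfkm did not overlap, with 111 and 98.8 CPM in MP and 88 and 20.2 CPM in LSK libraries. Gpi1, which isomerises glucose phosphate to fructose phosphate, had 838 to 1654 CPM in MP and 270 to 1628 CPM in LSK libraries. Aldoa, the main aldolase of blood cells, had 822 to 1213 CPM in MP and 511 to 2076 CPM in LSK libraries. Tpi1, which interconverts the triose phosphates, had 745 to 1365 CPM in MP and 334 to 2071 CPM in LSK libraries. For all 3 both MP total libraries lay above both LSK total libraries. In polysomal RNA the groups overlapped for Gpi1 and Aldoa, while Tpi1 was lower in every MP library.

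The 4 PFKFB genes gave no call. Their enzymes make and remove a fructose bisphosphate that switches phosphofructokinase on and is distinct from the one that aldolase cleaves. Pfkfb4 had 67.1, 36.2 and 40.3 CPM in MP polysomal RNA and 54.7 and 20.2 CPM in MP total RNA, against 27.9 and 30.6 CPM in LSK polysomal RNA and 22.5 and 5.14 CPM in LSK total RNA. MP exceeded LSK in every polysomal library but not in every total RNA library. Pfkfb3 had 27.5 to 59.2 CPM in MP and 12.1 to 41.7 CPM in LSK libraries, and Pfkfb1 and Pfkfb2 had at most 11.5 CPM in any library.

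Of the 8 genes of lower glycolysis, Eno2 was the 1 that passed. Pkm, the pyruvate kinase gene of most tissues, had 1857, 1852 and 1686 CPM in MP polysomal RNA and 2196 and 1048 CPM in MP total RNA, against 1647 and 5407 CPM in LSK polysomal RNA and 1433 and 706 CPM in LSK total RNA. LSK polysomal 2 alone was far above the rest, and the log2 change was −0.97 in polysomal RNA (SE 0.564, adjusted p = 0.419) and 0.60 in total RNA (SE 0.628, adjusted p = 0.694). Gapdh, which oxidises the triose phosphate and is often used as a reference gene, had 653 to 1250 CPM in MP and 754 to 1686 CPM in LSK libraries. Its log2 difference of 0.03 over both fractions (SE 0.316, adjusted p = 0.977) averaged opposite signs. These were 0.58 in total RNA (SE 0.468, adjusted p = 0.592) and −0.52 in polysomal RNA (SE 0.422, adjusted p = 0.585). Its total RNA groups did not overlap, with 1250 and 1051 CPM in MP and 754 and 786 CPM in LSK, and its polysomal groups did. Pgk1, the ATP-forming kinase of lower glycolysis, had 103 to 270 CPM in MP and 31 to 285 CPM in LSK libraries. Pgam1, the phosphoglycerate mutase, had 40.5 to 186 CPM in MP and 22.4 to 149 CPM in LSK libraries. Eno1, the main enolase, had 684 to 1554 CPM in MP and 337 to 2127 CPM in LSK libraries, and Eno3, the muscle enolase, had 10.4 to 15.2 CPM in MP and 5.16 to 14.8 CPM in LSK libraries. For Pgam1, Eno1 and Eno3 both MP total libraries lay above both LSK total libraries, and the polysomal groups overlapped. Bpgm, which makes the red cell effector bisphosphoglycerate, had 49.6, 29.8 and 21.5 CPM in MP polysomal RNA against 61.7 and 56.4 CPM in LSK polysomal RNA. Its polysomal groups did not overlap, and its log2 change there was −0.81 without a call (SE 0.518, adjusted p = 0.466). In total RNA Bpgm had 33.4 and 21.5 CPM in MP and 33.3 and 25.9 CPM in LSK libraries, which overlapped. Its log2 change there was −0.11 (SE 0.575, adjusted p = 0.95). The erythroid marker sum was higher in MP libraries, and its part in the level of Bpgm was not tested.

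Among the 4 lactate genes, Ldha had 3650, 3352 and 2164 CPM in MP polysomal RNA and 2637 and 2011 CPM in MP total RNA, against 3035 and 3891 CPM in LSK polysomal RNA and 1424 and 1284 CPM in LSK total RNA. Its total RNA groups did not overlap, with a log2 change of 0.78 (SE 0.425, adjusted p = 0.398). Ldhb, the heart-type subunit, had 69.8, 38.2 and 33.4 CPM in MP polysomal RNA and 69.1 and 35.4 CPM in MP total RNA, against 123 and 239 CPM in LSK polysomal RNA and 61.6 and 70.7 CPM in LSK total RNA. The polysomal groups were apart and the total RNA groups overlapped. In polysomal RNA its log2 change was −1.94 (SE 0.539, adjusted p = 0.0877), which DESeq2 called and edgeR did not. Slc16a3, which encodes the lactate exporter MCT4, had 15.8 to 40.5 CPM in MP and 5.66 to 24 CPM in LSK libraries, and its log2 change of 1.26 over both fractions did not pass.

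The other 3 pyruvate dehydrogenase kinases gave no call. Pdk1, a known target of hypoxia signalling, had 49.8, 51.7 and 207 CPM in MP polysomal RNA and 49.6 and 153 CPM in MP total RNA, against 67.3 and 171 CPM in LSK polysomal RNA and 31.4 and 53.9 CPM in LSK total RNA. MP and LSK overlapped in both fractions, and the log2 change was 0.52 over both fractions (SE 0.589, adjusted p = 0.685). Pdk2 had 5.88 to 29.8 CPM in MP and 10.7 to 103 CPM in LSK libraries, and Pdk3 had 20.8 to 117 CPM in MP and 25.5 to 187 CPM in LSK libraries. For both, the highest LSK library was LSK polysomal 2. The phosphoglucomutases connect glycolysis with glycogen. Pgm1 had 106 to 239 CPM in MP and 75.7 to 107 CPM in LSK libraries, and Pgm2 had 65.9 to 137 CPM in MP and 42.6 to 345 CPM in LSK libraries. These 2 symbols were exchanged between annotation versions, so which enzyme each row holds depends on the annotation of the counting, which is not given in the sources used here.

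None of the 6 pentose phosphate genes passed, and 4 of them were higher in MP total RNA at an unadjusted p under 0.05 (4.52% of all tested genes). Over both fractions, DESeq2 called Rpia, and Pgd was called with no filter on low counts and without LSK total 1. With no filter Pgd was also called in total RNA, and Pgd and Tkt between the LSK fractions. G6pdx, the rate-limiting dehydrogenase at the entry of the pathway, had 763, 522 and 378 CPM in MP polysomal RNA and 448 and 246 CPM in MP total RNA, against 332 and 290 CPM in LSK polysomal RNA and 179 and 84 CPM in LSK total RNA. In each fraction every MP library was above every LSK library. The log2 change was 0.83 in polysomal RNA (SE 0.521, adjusted p = 0.457), 1.40 in total RNA (SE 0.568, adjusted p = 0.245) and 1.12 over both fractions (SE 0.386, adjusted p = 0.106). Pgd, the second NADPH-forming dehydrogenase, had 1082, 747 and 611 CPM in MP polysomal RNA and 680 and 347 CPM in MP total RNA, against 503 and 644 CPM in LSK polysomal RNA and 194 and 60.9 CPM in LSK total RNA. The total RNA groups were apart, with a log2 change of 2.01 (SE 0.641, adjusted p = 0.151), and the polysomal groups overlapped, with 0.50 (SE 0.572, adjusted p = 0.717).

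The enzymes of the non-oxidative branch rearrange pentoses into glycolytic sugars. Tkt, transketolase, had 1821, 1511 and 1173 CPM in MP polysomal RNA and 1593 and 889 CPM in MP total RNA, against 1263 and 2467 CPM in LSK polysomal RNA and 752 and 181 CPM in LSK total RNA. Taldo1, transaldolase, had 1229, 1002 and 710 CPM in MP polysomal RNA and 1062 and 803 CPM in MP total RNA, against 775 and 1111 CPM in LSK polysomal RNA and 381 and 367 CPM in LSK total RNA. Both were apart in total RNA and overlapped in polysomal RNA, with log2 changes in total RNA of 1.41 for Tkt (SE 0.682, adjusted p = 0.335) and 1.32 for Taldo1 (SE 0.455, adjusted p = 0.178). Rpia, ribose phosphate isomerase, had 12.2 to 22.7 CPM in MP and 7.29 to 12.3 CPM in LSK libraries. Pgls, the lactonase of the oxidative branch, had 2.9, 15.4 and 178 CPM in MP polysomal RNA and 47.4 and 320 CPM in MP total RNA, against 2.03 and 410 CPM in LSK polysomal RNA and 7.15 and 181 CPM in LSK total RNA. Its highest library held 202 times the level of its lowest, and in each group the library numbered 1 was the lowest.

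**Figure D3:**
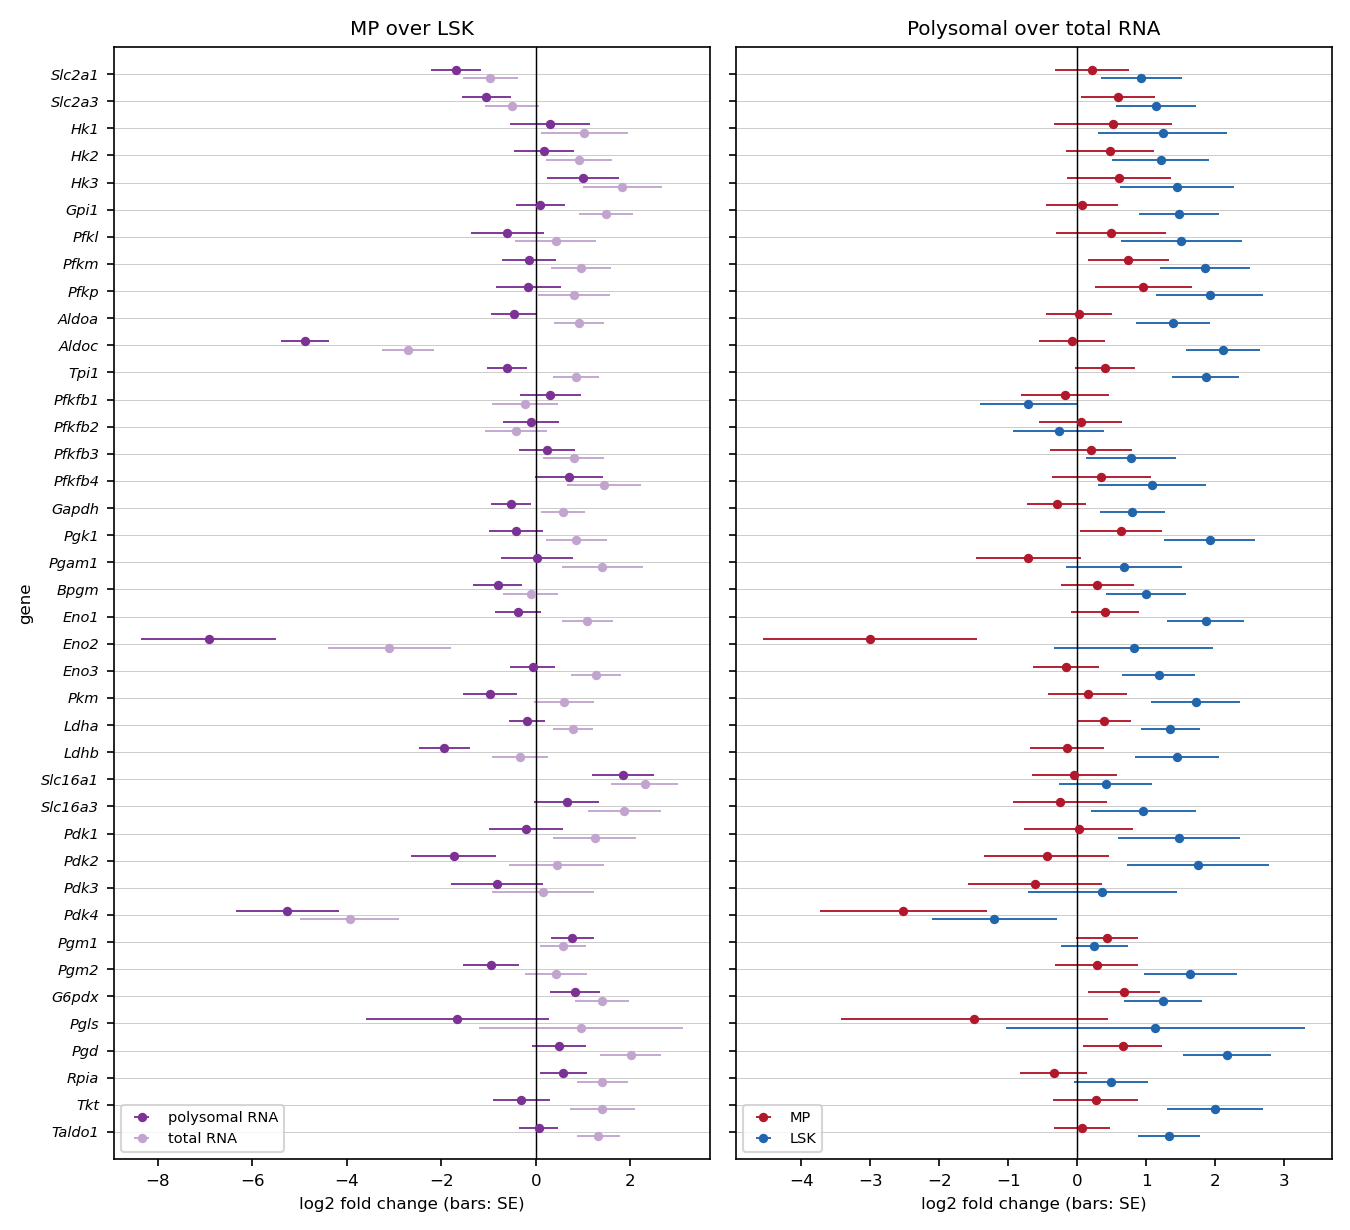
Points are log2 fold changes of the 40 genes with their standard errors as bars, MP over LSK on the left (polysomal RNA dark, total RNA pale) and polysomal over total RNA on the right (MP red, LSK blue). On the left Aldoc, Eno2 and Pdk4 stand far below 0, and on the right the LSK points lie above 0 for 37 of the 40 genes, none of them called.

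The second question was how polysomal RNA differed from total RNA, which bears on the messages found with ribosomes. The comparisons of populations and of fractions share libraries, so their values are given side by side and are not independent. Total and polysomal libraries were not paired in the main fit, since the labels do not say which of them share a lysate. With libraries of a population blocked by their number, 0 of the 40 genes were called in either population. The median log2 change of the 40 genes was then 1.33 in LSK and 0.3 in MP cells. In LSK cells, edgeR's test called 0 of the 40 genes and 0% of all tested genes in either direction. At an unadjusted p under 0.05, 15 of the 40 were higher and 0 lower in LSK polysomal RNA, against 3.56% and 8.5% of all tested genes, and DESeq2 called Aldoc among 433 genes in all. The log2 change was positive for 37 of the 40 genes and for 50.8% of all tested genes, with a median of 1.24 against 0.02. Both LSK polysomal libraries lay above both LSK total libraries for 26 of the 40 genes (16.2% of all tested genes) and below them for Pfkfb1 and Pdk4 (20.6%).

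The size of that LSK difference varied with the libraries used. The median of the 40 genes was 0.75 to 1.48 with single libraries left out and 0.45 without both LSK libraries numbered 2. LSK polysomal libraries also had fewer genes with a count, 19088 and 17199, than LSK total libraries, with 23657 and 23160. The sum of 6 macrophage markers was 82.2 and 94.6 CPM in LSK polysomal RNA and 15.7 and 6.26 CPM in LSK total RNA. Of this, Vcam1 gave 58.4 and 21.2 CPM in LSK polysomal RNA and 8.69 and 3.64 CPM in LSK total RNA. In MP libraries the same sum was 470, 233 and 231 CPM in polysomal RNA and 179 and 76.3 CPM in total RNA. The sum of 10 markers of maturing neutrophils was 2420 and 1410 CPM in LSK polysomal RNA and 687 and 444 CPM in LSK total RNA, with a positive log2 change for 10 of 10 and a median of 1.24. The part that these markers and gene numbers have in the LSK difference was not tested.

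Among single genes in LSK cells, the smallest p belonged to Aldoc, with a log2 change of 2.11 (SE 0.535, adjusted p = 0.213). Tpi1 had 1431 and 2071 CPM in LSK polysomal RNA against 628 and 334 CPM in LSK total RNA, a log2 change of 1.86 (SE 0.491, adjusted p = 0.217). Pgd followed with 2.17 (SE 0.644, adjusted p = 0.234) and Eno1 with 1.86 (SE 0.554, adjusted p = 0.236). For all 4 genes both LSK polysomal libraries were above both LSK total libraries. By role, the median log2 change in LSK cells was 1.5 for the 10 genes of upper glycolysis, 1.29 for the 6 pentose phosphate genes, 1.16 for the 4 lactate genes, 1.09 for the 8 genes of lower glycolysis and 0.25 for the 4 PFKFB genes.

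In MP cells, edgeR's test and DESeq2 called 0 of the 40 genes between polysomal and total RNA (edgeR: 0% of all tested genes), and 0 of the 40 had an unadjusted p under 0.05, against 4% of all tested genes higher and 3.57% lower. The log2 change was positive for 26 of the 40 genes and 45.3% of all tested genes, with a median of 0.18 against −0.08. Without MP total 2 the median was −0.12, with 18 of the 40 positive, and without MP total 1 it was 0.65, with 30 positive. All 3 MP polysomal libraries lay above both MP total libraries for Slc2a3, Pfkm and Pfkp (16.3% of all tested genes) and below them for Pdk4 and Rpia (16.4%). Pfkp, the platelet-type phosphofructokinase, had 304, 269 and 198 CPM in MP polysomal RNA and 179 and 84.3 CPM in MP total RNA, a log2 change of 0.96 (SE 0.709, adjusted p = 0.808). G6pdx had a log2 change of 0.68 (SE 0.518, adjusted p = 0.824). Pdk4, at −2.52 (SE 1.21, adjusted p = 0.675), and Eno2, at −3.01 (SE 1.55, adjusted p = 0.698), had the smallest p in MP cells but rest on single counts in polysomal RNA, and without MP total 1 the value for Eno2 was 1.91.

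Whether the polysomal change differed between the populations was tested as an interaction, in which a negative value means a smaller polysomal over total change in MP than in LSK cells. None of the 40 genes and 0% of all tested genes were called by edgeR, and DESeq2 called 0 of the 40. At an unadjusted p under 0.05, 0 of the 40 were positive and 2 negative (4.74% and 0.554% of all tested genes). The value was negative for 37 of the 40 genes and positive for 46.9% of all tested genes, with a median of −1.16 against −0.10, and the median was −0.40 without both LSK libraries numbered 2 and −1.56 to −0.66 with single libraries left out, nearest to 0 without LSK polysomal 2. The smallest p belonged to Aldoc at −2.18 (SE 0.705, adjusted p = 0.877), with polysomal over total changes of −0.07 in MP and 2.11 in LSK cells. Tpi1 followed at −1.46 (SE 0.643, adjusted p = 0.877), with 0.40 in MP and 1.86 in LSK cells, then Taldo1 at −1.26 (SE 0.604, adjusted p = 0.877) and Eno1 at −1.46 (SE 0.725, adjusted p = 0.877).

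Averaged over both populations, edgeR's test and DESeq2 again called 0 of the 40 genes, while over all tested genes edgeR called 0% and DESeq2 765 genes. At an unadjusted p under 0.05, 11 of the 40 were higher and 1 lower in polysomal RNA, against 4.65% and 10.2% of all tested genes, and the median log2 change was 0.71 against 0.03. With single libraries left out the median was 0.46 to 0.97, lowest without LSK polysomal 2. The smallest p were those of Tpi1 at 1.13 (SE 0.329, adjusted p = 0.154), Pgd at 1.42 (SE 0.432, adjusted p = 0.169), Eno1 at 1.13 (SE 0.371, adjusted p = 0.198) and Ldha at 0.87 (SE 0.291, adjusted p = 0.201).

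Isozymes of the same step were set against each other as shares of the family's CPM per kb of exon within a library, a measure that a change common to the whole pathway leaves untouched. Ldhb made up 3.87%, 2.35% and 3.15% of the lactate dehydrogenase messages Ldha and Ldhb in MP polysomal RNA and 5.24% and 3.58% in MP total RNA, against 7.89% and 11.5% in polysomal LSK RNA and 8.36% and 10.4% in total LSK RNA. Every LSK share was above every MP share. Hk3 made up 69.9%, 62.3% and 70.4% of the messages of the 3 hexokinases in MP polysomal RNA and 68.5% and 59% in MP total RNA. Its shares were 57% and 55% in polysomal LSK RNA and 51.4% and 55.1% in total LSK RNA. They did not overlap, but this depends on the lengths used. The exon union of Hk1 holds 8532 bases and its longest transcript 4278, against 3682 and 3219 for Hk3. With longest-transcript lengths the Hk3 share in MP total 2 does not exceed that in LSK polysomal 1, so the populations overlap. With so few libraries an exact permutation test of these shares has a smallest possible two-sided p of 0.333 in total RNA and 0.2 in polysomal RNA, so none is given.

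Aldoc made up 0.159% to 0.189% of the aldolase messages Aldoa and Aldoc in MP and 2.05% to 5.51% in LSK libraries, so Aldoa made up nearly all of them in both populations. Eno2 made up at most 0.0222% of the enolase messages in MP and 0.0982% to 0.322% in LSK libraries. Slc2a1 made up 36.7% to 44.9% of the messages of the 2 glucose transporters in MP and 36.1% to 62.1% in LSK libraries, which overlapped. Pfkfb4 made up 44.2% to 56.4% of the PFKFB messages in MP and 22.5% to 48.4% in LSK libraries, which overlapped as well. Pdk3 was the largest part of the 4 pyruvate dehydrogenase kinases by group mean in all 4 groups, with 55.4% ± 5.75 in MP polysomal RNA (SD, n = 3) and 65% ± 3.94 in MP total RNA (SD, n = 2), against 52.1% ± 7.17 in LSK polysomal RNA and 67.3% ± 17.1 in LSK total RNA (SD, n = 2 each).

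**Figure D4:**
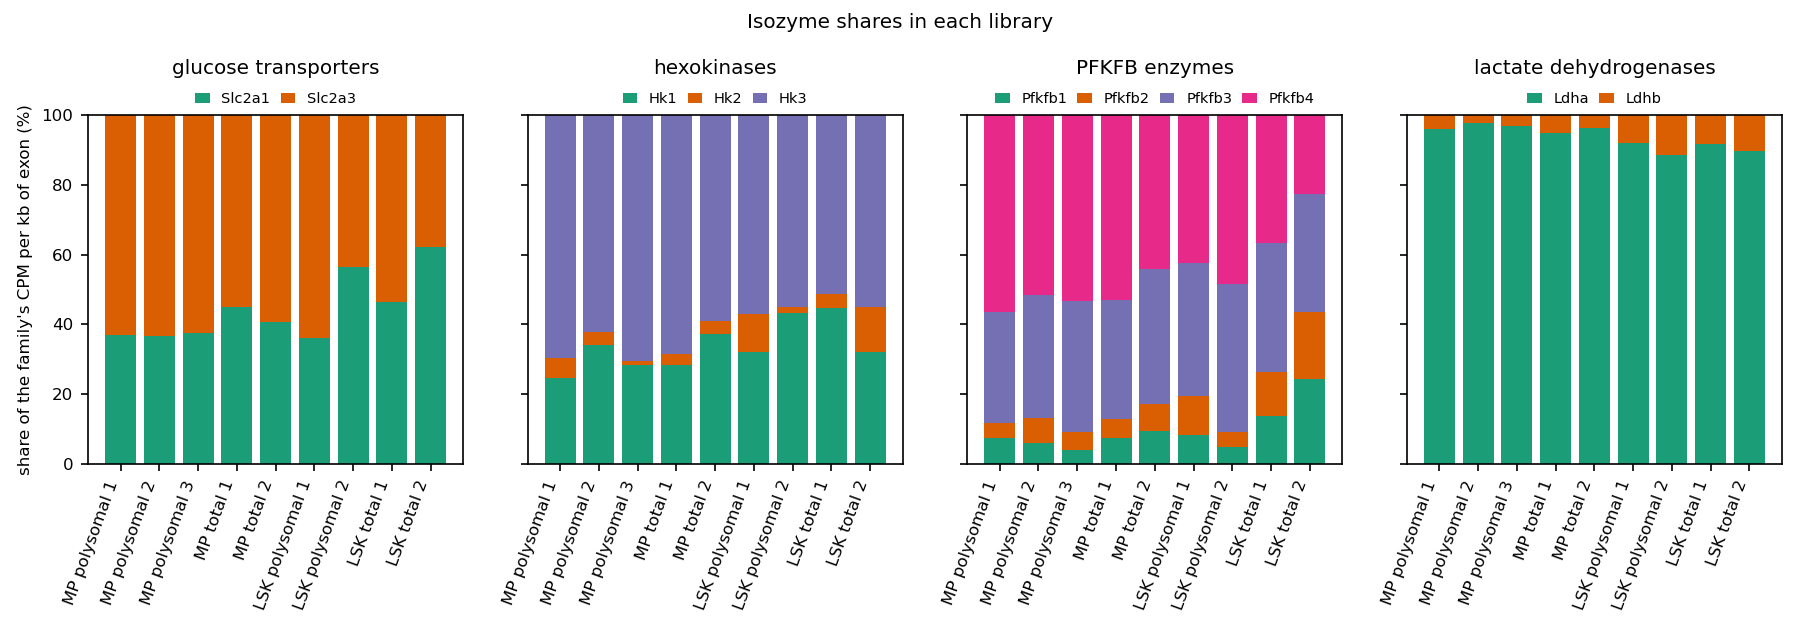
Bars show, for each of the 9 libraries, the percent of a family's CPM per kb of exon that each isozyme holds, for 4 families. The Ldhb share is 2.35% to 5.24% in MP and 7.89% to 11.5% in LSK libraries, without overlap. The Hk3 share is 59% to 70.4% in MP and 51.4% to 57% in LSK libraries, without overlap at these exon lengths only.

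Genes around the pathway were read from lists of their own, which were also chosen with earlier results of these data known. Of 33 other isozymes and transporters, 19 were tested, and over both fractions 2 rose and 1 fell in MP cells (2.72% and 7.37% of all tested genes). Pklr, the pyruvate kinase gene of liver and red cells, had 58.4, 134 and 108 CPM in MP polysomal RNA and 68.1 and 72.2 CPM in MP total RNA, against 6.48 and 16.5 CPM in LSK polysomal RNA and 5.13 and 2.72 CPM in LSK total RNA. It was higher in every MP library and rose in polysomal RNA (log2 change 3.13, SE 0.677, adjusted p = 0.0401), in total RNA (4.16, SE 0.738, adjusted p = 0.0389) and over both fractions (3.64, SE 0.501, adjusted p = 0.00321). The call over both fractions held under all 18 alternatives. The total RNA call was lost without any 1 MP library or either LSK total library (adjusted p of 0.0618 to 0.28), and the polysomal call without any 1 MP library or either LSK polysomal library (0.0657 to 0.15). The erythroid marker sum, mostly Car1 and Car2 and with 10 of 10 markers tested, was 6010 to 10500 CPM in MP and 1800 to 3560 CPM in LSK libraries. Its part in the level of Pklr was not tested. Ldhc, the testis-type lactate dehydrogenase, had 0.414 to 1.88 CPM in MP and 0.0664 to 0.175 CPM in LSK libraries (over both fractions 3.43, SE 0.619, adjusted p = 0.00918). Its LSK levels lie near the limit of detection, and its fitted log2 change ranged from 1.35 to 3.66 under the alternatives. Ldhd, which acts on D-lactate, had 0.422 to 1.66 CPM in MP and 3.62 to 9.97 CPM in LSK libraries (over both fractions −2.72, SE 0.516, adjusted p = 0.0112). The Ldhd call was lost without MP total 2 (adjusted p = 0.075), and without both MP libraries numbered 1 the calls of Ldhd (0.082) and Ldhc (0.0772) were lost.

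Of 17 glycogen genes 16 were tested, and Pygm was the 1 that passed, against 7.37% of all tested genes lower over both fractions. Pygm, the muscle glycogen phosphorylase that releases glucose phosphate from glycogen, had 1.3, 0.925 and 0.797 CPM in MP polysomal RNA and 0.833 and 0.454 CPM in MP total RNA, against 38.6 and 42.4 CPM in LSK polysomal RNA and 20.2 and 13.3 CPM in LSK total RNA. It was lower in every MP library and fell in polysomal RNA (log2 change −5.33, SE 0.579, adjusted p = 0.00696), in total RNA (−4.70, SE 0.673, adjusted p = 0.0326) and over both fractions (−5.01, SE 0.458, adjusted p = 0.00141). Over both fractions the call held under all 18 alternatives. In polysomal RNA it was lost without MP polysomal 1 (adjusted p = 0.0504), MP polysomal 2 (0.0716) or both MP libraries numbered 1 (0.0755), and in total RNA without any 1 MP library or either LSK total library (0.0595 to 0.28). All 10 genes of pyruvate entry into mitochondria, such as the carrier gene Mpc1 and the dehydrogenase genes Pdha1 and Dlat, were tested and edgeR called none of them between the populations. At an unadjusted p under 0.05, 1 of the 10 was higher in MP in polysomal RNA (6.09% of all tested genes) and 1 over both fractions (8.33%), and DESeq2 called Mpc1 higher over both fractions. Of 9 genes that oppose glycolysis, such as Pcx and Fbp1, 5 were tested. Neither edgeR nor DESeq2 called any of them between the populations, and 0 had an unadjusted p under 0.05.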

How the data were processed

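RNA of the 9 libraries was sequenced by the submitters, whose processing notes name bcl2fastq, STAR, featureCounts, DESeq2 and the builds mm10 and GRCm38 with no role or version. Annotation and strand setting were not stated. The deposited read counts per gene symbol were analysed as the authors gave them, and each column was matched to its library by name. The table held 27 date-like gene names, which belong to none of the 40 genes. The authors also deposited normalized values on a log2-like scale by a transform they do not name, and these were used in 1 alternative only.

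Counts of all 9 libraries were fitted with edgeR 4.0.16 in R 4.3.3 (group means, TMM scaling, filterByExpr with a minimum count of 10 and a minimum total of 15, quasi-likelihood test, 5 residual degrees of freedom). P-values were adjusted by Benjamini-Hochberg over 16426 genes, with a threshold of 0.05, in 7 comparisons. Total counts were 27342343 to 34807735, and intervals and floors (3 counts, 95% exact) cover counting error only. Levels per kilobase used the union of GENCODE M21 exons, and promoters came from RefSeq on GRCm38.p6. Full statistics were given to genes that passed, to the 4 with the smallest p in each comparison and to committed or branch steps, and of the other lists to genes that passed. The members and lists were chosen with earlier results of these data known. Alternatives were DESeq2 1.42.0, limma 3.58.1 on the normalized values, other scaling and filtering, a replicate block, removal of a GC trend (GC content known for 96.5% of tested genes and all 40 members), fits of the compared groups alone and libraries left out, singly and in pairs. Leaving out LSK total 2 in a fit of the total RNA libraries alone was added after the data were seen. The test was tried on simulated data with known changes. How often it finds a change at the spread of these libraries (median biological coefficient of variation 0.558) is not given here.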

Additional observations from a re-analysis of the deposited data

How the results depend on the processing

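Of the 40 genes, the number called between MP and LSK in total RNA, 0 by edgeR's test, was 1 with library totals alone, 3 by DESeq2, 3 with no filter on low counts, 2 with the replicate block, 1 with the GC trend removed, 2 with both and 2 by limma on the authors' normalized values. In polysomal RNA, where edgeR called 3, it was 5 by DESeq2, 1 with the replicate block, 1 with the block and the GC trend removed, 0 without both MP libraries numbered 1 and 1 without both LSK libraries numbered 2. The block ended the polysomal calls of Eno2 (adjusted p = 0.0808) and Pdk4 (0.0922), and it added calls of Aldoc and Slc16a1 in total RNA and of G6pdx over both fractions, with Slc2a1 also called over both fractions once the GC trend was removed. Over both fractions, where edgeR called 4, it was 2 without either pair. Between fractions, where edgeR called 0, DESeq2 called 1 and the fit with no filter 2 in LSK, and the fit with no filter called 2 over both populations. With single libraries left out the counts were 0 to 1 in total RNA, 0 to 2 in polysomal RNA and 3 to 5 over both fractions. The log2 change of Eno2 between MP polysomal and MP total RNA was −3.01 with all libraries, 1.91 without MP total 1, 2.34 without both MP libraries numbered 1, and −4.90 at the lowest with single libraries left out. The cause of these changes was not tested. Over all genes, DESeq2 called 1471 between MP and LSK in total RNA, against 179 by edgeR, and 1624 in polysomal RNA, against 551. The median log2 change of the 40 genes between MP and LSK in polysomal RNA was −0.20 with all libraries, 0.19 without LSK polysomal 2 and 0.11 with the block and the GC trend removed. Libraries with the same number share only a number in the labels. Their deviations from the group means correlated at 0.14 to 0.71 over the pairs of groups, and groups of 2 give too few pairs to settle a pairing. A count of 0 in 1 library allows up to 0.102 CPM, so Eno2 and Pdk4 in MP lie near the limit of detection.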

Other observations

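Of 18 regulators of glycolysis and of the hypoxia and nutrient response, 17 were tested, and 0 rose and 3 fell in MP cells over both fractions by edgeR's quasi-likelihood test with Benjamini-Hochberg adjustment over all genes (2.72% and 7.37% of all tested genes). Txnip, which restrains glucose uptake and binds thioredoxin, had 519, 503 and 480 CPM in MP polysomal RNA and 318 and 203 CPM in MP total RNA, against 2294 and 1804 CPM in LSK polysomal RNA and 990 and 725 CPM in LSK total RNA. No MP library reached the lowest LSK library. Its log2 change was −2.03 in polysomal RNA (SE 0.388, adjusted p = 0.0273) and −1.88 over both fractions (SE 0.295, adjusted p = 0.00531). The polysomal call of Txnip was lost without MP polysomal 1 (adjusted p = 0.0902), MP polysomal 2 (0.139), MP polysomal 3 (0.1), LSK polysomal 1 (0.0668) or LSK polysomal 2 (0.0556), and over both fractions it was lost without both MP libraries numbered 1 (0.058).

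Meis1, a homeobox factor of stem cells that acts upstream of Hif1a in mice, had 73.7, 59.6 and 46.8 CPM in MP polysomal RNA and 50.9 and 34.4 CPM in MP total RNA, against 493 and 167 CPM in LSK polysomal RNA and 459 and 262 CPM in LSK total RNA. In polysomal RNA it was called lower in MP, and that call held under 8 of 19 alternatives. Its log2 change there was −3.04 to −1.37 under the alternatives. Its log2 change over both fractions was −2.77 (SE 0.427, adjusted p = 0.00486), a call that was lost without both MP libraries numbered 1 (0.0527). Prkaa2, a catalytic subunit of the energy sensor AMPK, had 0.0333 to 0.444 CPM in MP and 0.498 to 4.19 CPM in LSK libraries. Its MP levels reach down to the limit of detection, and its fitted log2 change over both fractions ranged from −4.35 to −1.77 under the alternatives. With all libraries the change was −3.15 (SE 0.725, adjusted p = 0.0246). That call was lost without MP total 1 (0.0934), MP polysomal 2 (0.0591), MP polysomal 3 (0.0633), LSK total 2 (0.0639) or LSK polysomal 1 (0.0734). Of 9 genes of the hexosamine and serine branches, all tested, 1 fell over both fractions, against 7.37% of all tested genes. Gfpt2, which starts the hexosamine branch, had 0.876 to 3.35 CPM in MP and 3.24 to 13 CPM in LSK libraries, with a log2 change of −2.12 (SE 0.49, adjusted p = 0.025). Leaving out MP total 1 (0.0834), MP total 2 (0.137), MP polysomal 2 (0.0679), MP polysomal 3 (0.0509), LSK total 1 (0.0719) or LSK polysomal 2 (0.0528) ended that call. The sums of the other-cell markers that also differed between the populations are given with the libraries, and their part in these levels was not tested.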
